A study of Mus musculus with 48 samples.

Results

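The lungs of 4 A/J mice and 4 C57BL/6J (B6) mice that had received only the PBS vehicle were compared, 28 days (4 weeks) after the last treatment. These 8 arrays were all the arrays with PBS and 28 days of recovery among the 48 arrays of the series, and they were chosen by those labels and by no measured value. The mice were male and came from a commercial breeder. Each was lightly anaesthetised and aspirated PBS into the pharynx 4 times, so that sham mice of both strains shared the anaesthesia and the fluid but met no welding fume. The other groups used below were A/J and B6 mice given gas metal arc mild steel (GMA-MS) or stainless steel (GMA-SS) fume and killed at 4 weeks, and sham mice of both strains killed at 16 weeks, with 4 arrays in every group. No group carried a transgene, and each array held the whole lung of a single animal as far as the labels tell.

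A/J and C57BL/6J are inbred strains, so mice of a strain are close to genetically identical. How readily lung tumours arise differs between them, and A/J is the strain used as the susceptible one in many lung studies. They also carry different haplotypes of the major histocompatibility complex (MHC), the gene cluster whose class I and class II proteins present peptides to T cells. The comparison asks how the lungs of the strains differ when no fume has been given.

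Total RNA of the whole lung was hybridised to Illumina MouseRef-8 beadchips, on which each probe is carried by many beads. The value used is a background-corrected and quantile-normalised log2 intensity, on which 1 unit is a doubling. Tests were run on the 11624 of 24613 probes that had signal (a detection p below 0.01) on 4 or more of the 24 arrays taken at 4 weeks. Between 9990 and 11421 probes were detected on each of the 8 sham arrays, with a median of 35 or 36 beads a probe. Arrays correlated at 0.967 to 0.9935 within A/J, at 0.9728 to 0.9946 within B6 and at 0.9461 to 0.9714 between the strains. The label of the tissue was borne out by its markers, since Sftpc, the surfactant protein of type 2 alveolar cells, lay between 15.82 and 15.90 in A/J and between 15.81 and 15.96 in B6, and Scgb1a1, the secretory protein of club cells, between 15.88 and 16.00 and between 15.88 and 15.93. Each beadchip held 1 array of every group, and the replicate number names the beadchip. The B6 sham array always lay at slot A and the A/J sham array at slot E, so strain and slot cannot be told apart.

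The strains differed at 3579 probes, 30.8% of those tested, by limma with beadchip as a block and an adjusted p under 0.05. Of these, 1921 were higher in A/J (16.5% of the probes tested) and 1658 were higher in B6 (14.3%). A difference of at least 1.3 fold was found at 1436 probes (12.4%), 597 higher in A/J and 839 higher in B6, and one of at least 2 fold at 284 probes (2.44%), 80 higher in A/J and 204 in B6. The values of the strains did not overlap at 2251 probes (19.4%). With 1 probe for each gene, 2770 of 8687 genes passed the test (31.9%), 1512 of them higher in A/J (17.4%) and 1258 higher in B6 (14.5%), and the median difference over all genes was 0.03 on the log2 scale. Without the beadchip block 2117 probes passed, and with scaling by the median of each array in place of quantiles 830 passed.

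Genes that differed were spread unevenly along the genome. Called genes with at least 1.3 fold made up 12.6% of all genes, from 2.78% on chromosome X (7 of 252) to 17.5% on chromosome 17 (73 of 418), the chromosome of the MHC, and chromosome 13 (16.7%) and chromosome 1 (16%) came next. The next gene along the chromosome was also called for 220 of 1094 called genes (20.1%), against 871 of 7565 genes that were not called (11.5%). Families of near-identical copies lie beside each other and share probe signal, and their part in this was not tested.

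Among the genes highest in A/J were an MHC class I gene, an MHC class II gene, a beta globin gene and the heat-producing protein of brown fat. H2-D1, an MHC class I heavy chain, read 14.03, 14.19, 13.82 and 13.94 in A/J replicates 1 to 4 and 7.47, 7.46, 7.45 and 7.43 in the B6 replicates. Its probe was not detected on any B6 sham array, and the signal in A/J was at least 77.1-fold higher (log2 difference 6.54 ± 0.11 SE, adjusted p = 3.98e-19, limma). Whether this probe reads the B6 allele of H2-D1 equally well was not tested, so B6 lungs cannot be said to lack its transcript. Gbp2b, an interferon-inducible guanylate-binding protein that belongs to a family of close copies, read 12.56, 12.27, 12.19 and 12.09 in A/J and 7.55, 7.53, 9.02 and 7.53 in B6, where it was detected on replicate 3 alone. The strains did not overlap at either gene. Baiap2l1, which shapes actin at the cell membrane, was 7.48-fold higher in A/J (12.58, 13.36, 12.68 and 13.33 against 9.84, 10.36, 9.71 and 10.43). In both strains it was lower on replicates 1 and 3 than on replicates 2 and 4, and A/J was higher in all 4 pairs. Fbp2, the fructose bisphosphatase of muscle, was 6.02-fold higher, Fam20b, a kinase of proteoglycan synthesis, 5.64-fold, Abhd1 4.69-fold and the sulfotransferase gene Chst8 4.68-fold. Ankrd1, a nuclear ankyrin-repeat protein of muscle and stressed cells, was 3.62-fold higher and Hddc3 3.14-fold. Those 6 genes were higher in A/J in all 4 pairs, and no B6 array reached the lowest A/J array.

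Genes with a difference of at least 2 fold were more often higher in B6 than in A/J. Emb, the cell adhesion protein embigin, read 7.60, 7.73, 7.52 and 7.72 in A/J and 13.05, 13.29, 13.02 and 13.54 in B6, was not detected on any A/J array and was at least 43.5-fold lower there. Fcer1g, the signalling gamma chain of Fc receptors, read 7.50, 7.49, 7.47 and 7.52 in A/J and 12.88, 12.62, 12.87 and 12.68 in B6, at least 31.5-fold lower in A/J. Il6st, the gp130 receptor subunit shared by cytokines of the interleukin 6 family, read 7.52, 7.41, 7.43 and 7.48 against 11.23, 10.97, 11.13 and 11.25, at least 10.3-fold lower. None of these 3 was detected on any A/J array. The same held for Tmem68 (at least 13.6-fold lower), Adh7, an alcohol and retinol dehydrogenase (at least 11.3-fold), the ribonuclease angiogenin, Ang (at least 9.73-fold), and Trim30a, a member of a family of close copies (at least 9.60-fold). In contrast Sparc, a matrix glycoprotein, was detected on every array and read 8.84, 9.27, 8.65 and 9.63 in A/J and 12.63, 12.76, 12.90 and 13.11 in B6 (13.5-fold). Abhd16a, a phospholipase gene within the MHC region, was 24.7-fold higher in B6, Csrp1, a LIM protein of smooth muscle, 17.3-fold, Pnrc2, a nuclear receptor coactivator, 11.9-fold and Prcp, a carboxypeptidase that cleaves angiotensins, 9.78-fold. Of the 15 genes with the largest difference in this direction, the highest adjusted p was that of Hbb-bt (1.51e-12), followed by Adh7 (1.95e-14).

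**Figure D1:**
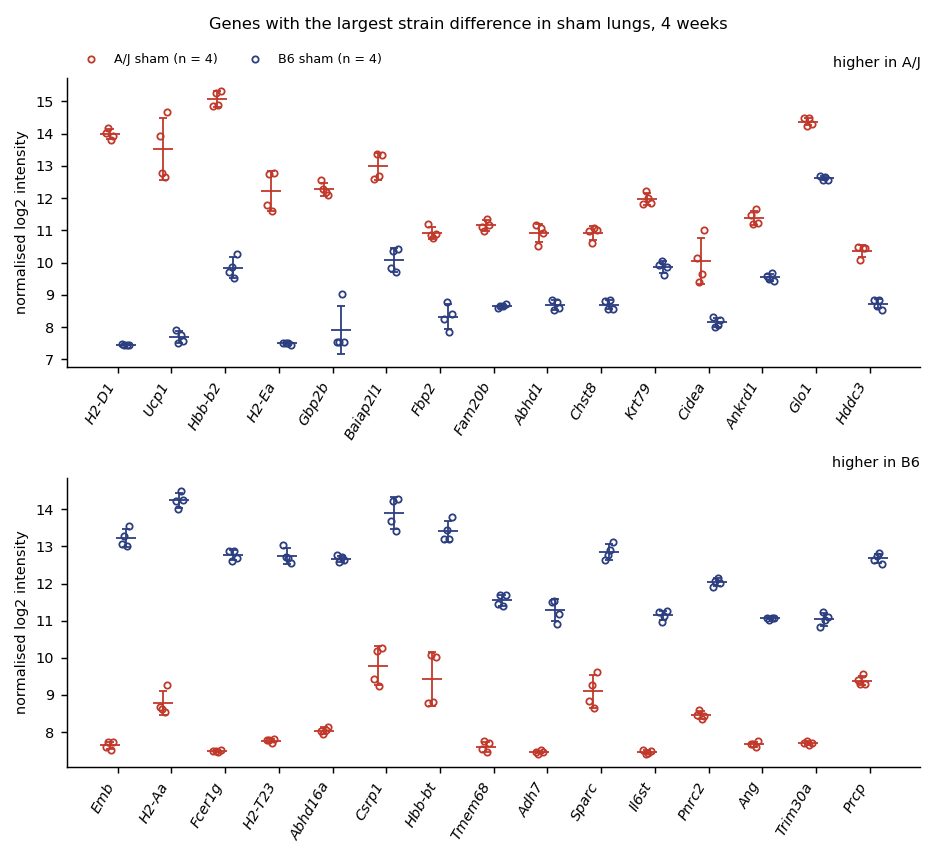
Normalised log2 intensity (vertical axis) of the 15 genes with the largest difference in each direction, with 1 point for each of 4 A/J (red) and 4 B6 (blue) sham arrays at 4 weeks and bars for mean and SD. The arrays of the strains do not overlap at any of the 30 genes, and H2-D1 and H2-Ea in B6 and Emb and Fcer1g in A/J were not detected on any array.

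Of the 80 probes at least 2 fold higher in A/J, 11 were not detected in any B6 sham lung. Of the 204 at least 2 fold higher in B6, 68 were not detected in any A/J sham lung. Probe sequences were not used here, so whether a probe matches the transcript of both strains equally well was not tested. What the data hold is how other probes of the same gene read. A second tested probe existed for 57 of the 284, of which 24 had another probe that also differed at least 2 fold the same way and 40 another probe called the same way. Among the 1285 genes with 2 or more tested probes, no probe was called for 727, all were called in the same direction for 168, some were called for 363, and 27 were called in both directions (11 without the beadchip block, 0 with median scaling). Ctsc, the lysosomal dipeptidase cathepsin C, is such a gene. A probe of it read 7.93, 8.18, 7.76 and 8.20 in A/J and 11.33, 11.75, 11.41 and 11.87 in B6 (log2 difference −3.57 ± 0.10), while the brighter probe read 13.27, 13.47, 13.34 and 13.32 against 12.94, 12.99, 13.05 and 12.98 (0.36 ± 0.06). Cldn10, a tight junction claudin, likewise had a probe at −1.03 ± 0.07 and a brighter one at 0.19 ± 0.07. Among the genes described here, several had another probe called the same way at the smaller difference in brackets. These were Abhd1 (1.12), Ccn1 (−0.79), Cd79b (−0.91), Cxcl14 (−1.21), Egfl7 (−0.20), Fcrla (−0.44), Gabrp (0.33), Gpnmb (0.74) and Nkg7 (−0.41). Slc39a8 (0.30) and Itih4 (−0.20) had another that was not called. A large difference at a single probe therefore cannot be read as a difference of the gene by itself.

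MHC class II proteins are made of an alpha and a beta chain (H2-Aa with H2-Ab1, H2-Ea with H2-Eb1), are loaded with peptide by H2-DM under the control of H2-O, and travel with the invariant chain Cd74. Of the 10 class II genes tested, 6 were lower in A/J, 1 was higher and 3 did not pass the test, against 14.5% and 17.4% of all genes. The median of the 10 was −0.69. The 3 genes of the group whose start regions are printed here were all lower in A/J. Start regions of the other class II genes are not shown, so whether the element goes with the direction was not tested. The stretches are 150 bases that end at the annotated start of the gene in the reference genome, which is that of B6, and the capitals mark the Y box GATTGG on either strand, an element of class II promoters.
H2-Aa (GRCm38.p6, chr17:34287824-34287973, minus strand): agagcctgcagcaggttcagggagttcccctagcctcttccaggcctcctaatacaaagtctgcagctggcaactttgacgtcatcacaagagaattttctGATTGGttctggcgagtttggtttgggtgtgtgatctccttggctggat
H2-Eb1 (GRCm38.p6, chr17:34305717-34305866, plus strand): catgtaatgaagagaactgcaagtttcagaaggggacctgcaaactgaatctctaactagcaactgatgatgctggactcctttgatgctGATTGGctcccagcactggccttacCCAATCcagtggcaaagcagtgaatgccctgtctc
H2-Ob (GRCm38.p6, chr17:34238755-34238904, plus strand): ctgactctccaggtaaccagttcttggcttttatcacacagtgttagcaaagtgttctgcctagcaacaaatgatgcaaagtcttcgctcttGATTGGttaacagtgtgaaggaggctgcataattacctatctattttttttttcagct
In all 3 the letters on the forward strand begin 49 to 60 bases before the start. The letters occurred on either strand in 16.1% of the 32851 start regions of 300 bases in the RefSeq table, so that a match is a description and not a site.

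H2-Ea was the class II gene with signal in A/J alone. It read 11.78, 12.74, 11.59 and 12.78 in A/J and 7.51, 7.50, 7.52 and 7.46 in B6, where no array detected it (at least 22.6-fold, log2 difference 4.72 ± 0.28, adjusted p = 6.48e-11). The b haplotype of B6 is known to carry a promoter deletion that silences this gene. H2-Aa showed the reverse, with 8.68, 8.62, 8.55 and 9.27 in A/J and 14.23, 14, 14.49 and 14.25 in B6 (44.1-fold, −5.46 ± 0.16). H2-Ob was not detected in A/J (7.41, 7.39, 7.45 and 7.45) and read 9.98, 9.95, 10.04 and 9.68 in B6, at least 4.38-fold higher. Whether the probes of H2-Aa and H2-Ob read the A/J alleles equally well was not tested. Smaller gaps without overlap were found at H2-DMa (−1.39 ± 0.13), H2-Ab1 (−1.07 ± 0.13) and H2-Eb1 (−0.94 ± 0.11). A dimmer probe of H2-Ab1 gave −2.73 ± 0.12, so the size of its gap depended on the probe. H2-Oa differed by −0.43 ± 0.14 (adjusted p = 0.026), and its call was lost with median scaling, with no filter on detection and without A/J replicate 1 (adjusted p = 0.0576), A/J replicate 2 (0.135, −0.28), B6 replicate 2 (0.0565) or B6 replicate 3 (0.102).

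The invariant chain and the transactivator of the group did not share these gaps. Cd74 read 14.76, 15.06, 14.59 and 14.95 in A/J and 14.75, 15.20, 14.91 and 14.88 in B6 (−0.10 ± 0.11, adjusted p = 0.57). Ciita, the master transactivator of class II genes, differed by −0.16 ± 0.19 (adjusted p = 0.567). H2-DMb1 differed by 0.16 ± 0.17 at its brighter probe (adjusted p = 0.532) and was higher in A/J at the other (0.66 ± 0.13, adjusted p = 0.000739). The A/J and B6 values overlapped at Cd74, at Ciita and at the brighter H2-DMb1 probe.

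**Figure D2:**
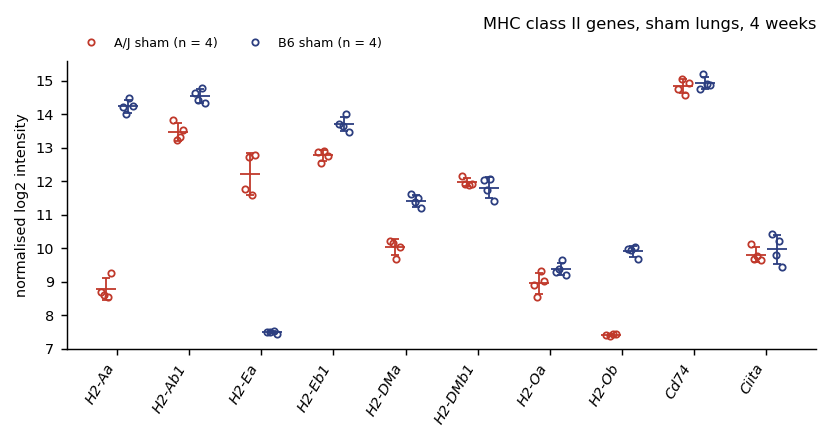
Normalised log2 intensity (vertical axis) of the 10 MHC class II genes tested, with points for 4 A/J (red) and 4 B6 (blue) sham arrays at 4 weeks and bars for mean and SD. H2-Ea was not detected in B6 nor H2-Ob in A/J, and the strains overlap at Cd74, Ciita, H2-DMb1 and H2-Oa.

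MHC class I genes are a family of close copies, which the probes may not separate, and their values are uncertain for that reason. The class I list holds, beside the heavy chains, genes that work with them, such as Psmb9. Of its 14 genes tested, 1 was higher in A/J (H2-D1) and 5 were lower, 42.9% called against 31.9% of all genes. H2-T23, which encodes the non-classical class I protein Qa-1, read 7.79, 7.80, 7.70 and 7.81 in A/J, with no detection, and 13.03, 12.71, 12.68 and 12.55 in B6 (at least 30.8-fold lower in A/J). H2-T22 was 9.07-fold lower in A/J at its brighter probe and at least 1.22-fold lower at a probe near background, H2-T10 at least 2.29-fold, and Psmb9, a subunit of the immunoproteasome encoded within the class II region, 5.20-fold. H2-K1 (−0.09) and the light chain B2m (0.01) did not pass the test.

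Several genes at which inbred strains are known to differ separated the strains. Of 11 such genes tested, H2-Ea among them, 5 were higher in A/J and 4 lower, 81.8% called against 31.9% of all genes. Hc, complement component C5, for which A/J carries a small deletion that leaves it without the protein, read 10.60, 10.05, 10.86 and 10.37 in A/J and 13.48, 13.24, 13.68 and 13.58 in B6 (8.14-fold lower in A/J, −3.02 ± 0.13). Glo1, a glyoxalase whose gene is duplicated in A/J, read 14.47, 14.25, 14.49 and 14.29 against 12.70, 12.55, 12.67 and 12.57 (3.37-fold higher, 1.75 ± 0.05). Alad, a haem synthesis enzyme, was 2.57-fold higher in A/J. None of these overlapped between the strains. Entpd4, a Golgi nucleotidase, was 1.59-fold lower and the retrovirus restriction factor Apobec3 1.34-fold lower in A/J, while the kallikrein Klk1 was 1.31-fold and Il3ra, the interleukin 3 receptor alpha chain, 1.22-fold higher. Naip2 differed by −0.17 ± 0.06 at the edge of detection, and its call was lost without A/J replicates 2 or 3 or B6 replicates 1, 3 or 4 (adjusted p from 0.0623 to 0.112). Slc11a1, the metal transporter of phagosomes (−0.10 ± 0.14), and Ide (0.17 ± 0.17) did not pass the test. The calls of Apobec3, Il3ra and Naip2 were lost with median scaling, and those of Il3ra and Naip2 without the beadchip block.

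The beta globin genes differed in opposite directions. Hbb-b2 read 14.84, 15.27, 14.88 and 15.32 in A/J and 9.72, 9.88, 9.52 and 10.26 in B6, and Hbb-bt read 8.79, 10.08, 8.81 and 10.02 in A/J and 13.19, 13.44, 13.21 and 13.79 in B6. B6 carries the single haplotype of the beta globin cluster with Hbb-bs and Hbb-bt, and the diffuse haplotype of other strains has Hbb-b1 and Hbb-b2. The alpha globin gene Hba-a1 differed by 0.02 and did not pass the test. Slc4a1, the band 3 anion exchanger of red cells, read 10.12, 11.06, 10.97 and 11.08 in A/J and 9.92, 9.30, 9.62 and 9.68 in B6 (2.26-fold higher in A/J).

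Among lists of cell type and pathway genes, those of alveolar macrophages leaned to A/J and those of B cells and natural killer cells to B6. In whole lung RNA, fewer cells of a type and less RNA of that type in each cell cannot be told apart. The plot of gene lists gives the share of each list that passed the test in each direction beside the 17.4% and 14.5% of all genes.

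**Figure D3:**
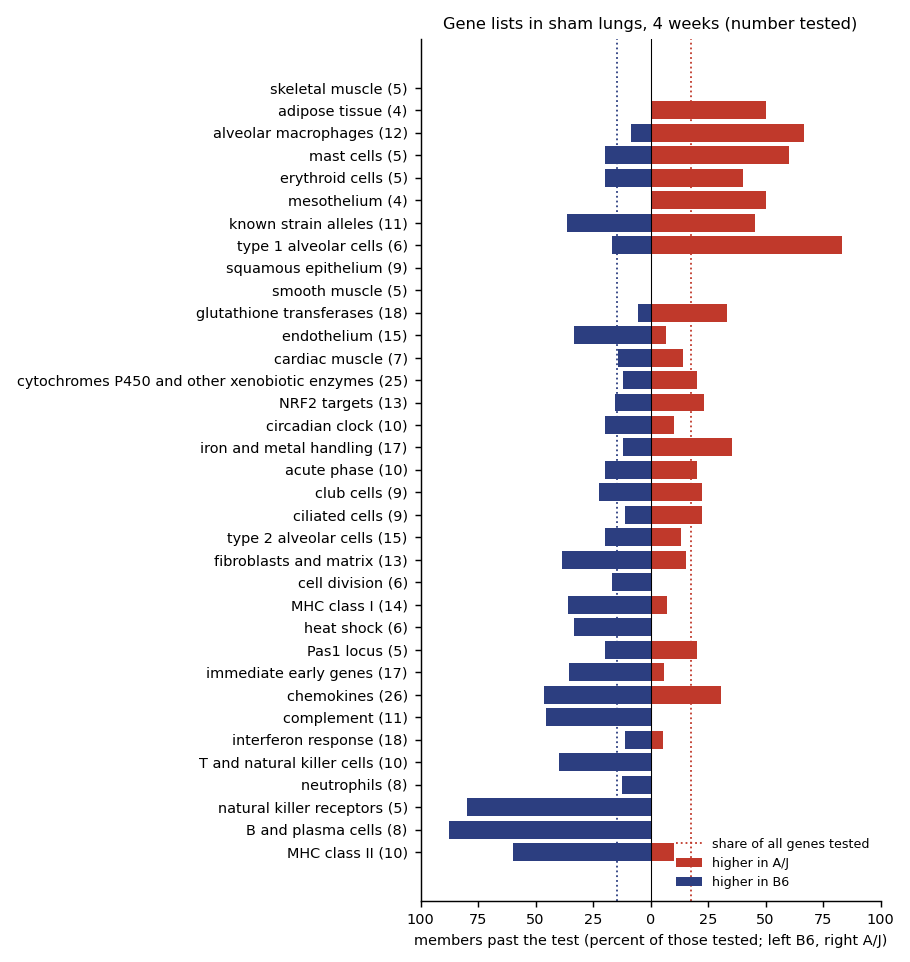
Percent of the tested members of each gene list that were higher in A/J (red, to the right) or higher in B6 (blue, to the left) in sham lungs at 4 weeks, with the number tested in brackets, lists ordered by median difference and dotted lines for the share of all genes. Bars for B and plasma cells (7 of 8 to the left) and alveolar macrophages (8 of 12 to the right) pass far beyond the dotted lines, and those of squamous epithelium, smooth muscle and skeletal muscle are empty.

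Of 12 alveolar macrophage genes, 8 were higher in A/J and 1, the lipoprotein lipase Lpl, was lower (−0.30 ± 0.09), a call lost without A/J replicates 1 or 3 or B6 replicate 2. The share called was 75%, against 31.9% of all genes. The median difference was 0.47, and the median level of the list lay between 10.43 and 10.76 on the A/J arrays and between 9.44 and 9.72 on the B6 arrays. Krt79, a keratin expressed by these cells, read 11.80, 12.22, 12.01 and 11.85 in A/J and 9.93, 10.06, 9.60 and 9.87 in B6 (4.31-fold, 2.11 ± 0.09, adjusted p = 6.00e-13). Marco, a scavenger receptor for particles, read 9.68, 9.33, 9.13 and 9.57 against 8.27, 8.50, 7.85 and 8.41 (2.25-fold). Gpnmb, a glycoprotein of lipid-laden macrophages, was 2.22-fold and the mannose receptor Mrc1 1.54-fold higher in A/J. The strains did not overlap at any of these 4. The elastase Mmp12 read 8.42, 8.64, 8.43 and 8.64 in A/J and 8, 7.98, 7.99 and 7.98 in B6 (1.46-fold, adjusted p = 0.0105), a call lost with median scaling. Itgax (0.01) and Trem2 (0.06), which also mark these cells, did not pass the test. The markers Siglecf, Chil3, Ear1 and Ear2 were not among the tested genes. Across the fits that each left out 1 sham array, 8 members were higher in A/J each time, and with median scaling 4 were.

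B cell genes were lower in A/J. Of 8 tested, 7 were lower and none higher (87.5% called, against 31.9% of all genes), with a median of −0.65. Fcrla, an intracellular protein of B cells, read 8.95, 8.45, 9.59 and 9.07 in A/J and 10.20, 10.46, 10.32 and 10.23 in B6 (2.44-fold). The signalling chains of the B cell receptor followed, with Cd79a at 9.13, 8.72, 9.71 and 9.91 against 9.99, 10.62, 10.24 and 10.73 (2.04-fold) and Cd79b at 11.08, 10.36, 11.84 and 11.31 against 12.02, 12.24, 12.19 and 12.22 (2.02-fold). A/J replicate 2 was the lowest A/J array at all 3 genes, and the A/J arrays varied more than the B6 arrays at Fcrla and Cd79b. Fcer2a, the low-affinity IgE receptor, was 1.64-fold and the kinase Blk 1.51-fold lower in A/J. With any single array left out 7 or 8 members were lower in A/J, and with median scaling 1 was, the calls of Cd79a, Cd79b, Fcer2a and Blk being lost.

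Natural killer genes were lower in A/J and the core T cell genes were not called. Of 10 genes of T and natural killer cells, 4 were lower in A/J and none higher (40% called, against 31.9% of all genes). These were Klrd1 (9.28, 9.33, 9.60 and 9.64 in A/J against 10.14, 10.47, 10.33 and 10.21 in B6, 1.77-fold), Ccl5 (1.75-fold), Klrb1c, which encodes the NK1.1 antigen of B6 (at least 1.58-fold), and the granule protein Nkg7 (1.58-fold). The T cell receptor chains Cd3d (−0.06), Cd3e (0.19) and Cd3g (0.17) did not pass the test. Of 5 natural killer receptors tested, 4 were lower in A/J (80% called, against 31.9% of all genes). Among the 4 was Klre1, which read 7.85, 7.90, 7.84 and 8.05 with no detection in A/J and 8.76, 8.92, 8.58 and 8.61 in B6. The receptor genes form clusters of close copies that differ between strains, so their values are uncertain. The calls of all 4 of these receptors, of Ccl5, Klrb1c and Nkg7 were lost with median scaling, and that of Nkg7 without B6 replicate 3 (adjusted p = 0.0629).

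Mast cell proteases were higher in A/J. Cpa3, the carboxypeptidase of mast cell granules, read 8.64, 8.57, 8.45 and 8.31 in A/J and 7.62, 7.72, 7.55 and 7.67 in B6, where it was not detected (at least 1.70-fold). The tryptase Tpsb2 was 1.26-fold and the chymase Cma1 at least 1.22-fold higher, calls lost with median scaling. Hdc, which makes histamine, was 1.42-fold lower in A/J (10.67, 10.64, 10.61 and 10.83 against 11.13, 11.16, 11.23 and 11.27), a call also lost with that scaling, and Kit (0.02) did not pass the test. Of 8 neutrophil genes only the gelatinase Mmp9 was called, 1.5-fold lower in A/J (12.5% called, under the 31.9% of all genes). Mmp9 was not called without B6 replicate 1 (adjusted p = 0.0503) or with median scaling. Of the neutrophil genes 4 were lower without B6 replicate 2 and 2 without A/J replicate 3.

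Differences at lung epithelial genes were mostly small in size, with larger ones at a few genes of the airway. Bpifa1, an antimicrobial protein secreted in the upper airway, read 10.88, 11.64, 10.78 and 13.28 in A/J and 13.81, 13.49, 12.60 and 13.78 in B6 (3.41-fold lower in A/J, −1.77 ± 0.39, adjusted p = 0.00165). A/J replicate 4 lay within the B6 range and the other A/J arrays below it. Chad, a leucine-rich matrix protein, was 2.13-fold lower in A/J and Gabrp, a GABA receptor subunit, 1.56-fold higher, both without overlap. Among 15 type 2 alveolar genes, A/J had 2 higher and 3 lower, the largest being Lamp3, a protein of lamellar bodies, at −0.47 ± 0.11 (lost with median scaling). The share of these genes called was 33.3%, near the 31.9% of all genes. Of 6 type 1 alveolar genes, A/J had 5 higher and 1 lower by at most 1.25 fold (Pdpn, podoplanin), 100% called against 31.9% of all genes. None of the 6 was called with median scaling, 2 were without the block, and 3 were higher without A/J replicate 3 or B6 replicate 1. Of 9 ciliated cell genes A/J had 2 higher and 1 lower, with a median of −0.04, and the share called was again 33.3%. Among them were the ciliary tektin Tekt4 (1.45-fold higher) and Sntn (−0.27 ± 0.08, lost with median scaling and without A/J replicate 3, adjusted p = 0.055).

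Genes of vessels and matrix differed in both directions, and among those given here the largest gap was that of Col1a2. Col1a2, a chain of type I collagen, read 7.90, 8.23, 7.95 and 8.13 in A/J and 9.91, 10.19, 10.21 and 10.25 in B6 (4.25-fold lower), whereas Col1a1, the partner chain in the same triple helix, differed by −0.43 (adjusted p = 0.000721). Mfap4, a protein of elastic fibres, was 1.66-fold higher in A/J (14.49, 14.52, 14.31 and 14.61 against 13.75, 13.56, 13.78 and 13.90). Of 13 fibroblast and matrix genes A/J had 2 higher and 5 lower (53.8% called, against 31.9% of all genes). Without the block or with median scaling 1 was lower. In every fit that left out 1 array 3 were lower, except 4 without A/J replicate 1. Among 15 endothelial genes, 1 was higher (the carbonic anhydrase Car4, 1.24-fold) and 5 were lower, including Vwf, the von Willebrand factor (1.53-fold), and Egfl7 (1.47-fold). The share of endothelial genes called was 40%, against 31.9% of all genes. Without A/J replicate 1, 3 were higher and 4 lower, and 2 were lower with median scaling. Pecam1 (0.12) and Cdh5 (−0.04), which mark all endothelium, did not pass the test.

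Chemokine genes differed often and in both directions. Of 26 tested, 8 were higher and 12 lower in A/J, 76.9% against 31.9% of all genes. Cxcl14, made by epithelium, read 9.95, 10.30, 9.77 and 10.65 in A/J and 11.84, 12.61, 11.94 and 12.44 in B6 (4.12-fold lower in A/J). Ppbp, the platelet chemokine, was 2.90-fold and Ccl4, made by macrophages and lymphocytes, 2.43-fold lower. Cxcl1, which attracts neutrophils, was 1.91-fold higher in A/J (9.75, 8.96, 9.40 and 9.23 against 8.68, 8.23, 8.52 and 8.19), a call lost with median scaling. Ccl8 was lower in A/J at −1.13 ± 0.40, but B6 replicate 3 read 11.12 against 8.18 to 8.34 for the other B6 arrays. Without that array the difference was −0.37 (adjusted p = 0.011), and the call was lost with any A/J array left out (adjusted p from 0.0629 to 0.0945). With median scaling 2 chemokines were higher and 4 lower in A/J.

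Complement genes were lower in A/J where they differed, 5 of 11 and none higher (45.5% called, against 31.9% of all genes). Beside Hc these were C6, a component of the membrane attack complex (1.80-fold), the C1 inhibitor Serping1 (1.46-fold), C1qb, whose difference of −0.56 was −0.33 without B6 replicate 3, and properdin, Cfp, whose call was lost without the block and without A/J replicate 3 (adjusted p = 0.0763) or B6 replicate 1 (0.0958). Median scaling left 2 of the 5. Of 18 interferon response genes, A/J had 1 higher and 2 lower, a share (16.7%) under that of all genes, and none was called without the block or with median scaling. Of 10 acute phase genes 2 were higher in A/J and 2, Lbp (−0.19) and Itih4 (−0.18), lower, with 0 or 1 lower when any single array was left out. The share of this list called was 40%. Pigr, which carries IgA across epithelium, was 1.85-fold and Orm1 1.57-fold higher in A/J, the latter a call lost with median scaling.

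Enzymes of xenobiotic metabolism and proteins of metal handling differed by small amounts. Of 18 glutathione transferases, 6 were higher and 1 lower in A/J (38.9% called, near the 31.9% of all genes). No gap was above 1.43 fold (Gsto1, 13.14, 12.87, 13.01 and 12.85 in A/J against 13.60, 13.40, 13.56 and 13.38 in B6). The count higher in A/J was 3 without the block, 0 with median scaling and between 2 and 7 when single arrays were left out, with 2 each without A/J replicate 1, A/J replicate 3 or B6 replicate 3. Of 25 cytochromes P450 and other xenobiotic enzymes, 5 were higher and 3 lower in A/J. The share called was 32%, no more than the 31.9% of all genes. Without the block 2 were higher and 2 lower, and with median scaling 2 and 0. Cyp2b10, a cytochrome P450 of the lung, was 1.48-fold higher in A/J (13.71, 13.92, 13.75 and 13.77 against 13.30, 13.12, 13.16 and 13.32). The sulfotransferase Sult1d1 was 1.56-fold higher in A/J, and Cyp3a13 was 1.60-fold lower. Of 17 genes of iron and metal handling, A/J had 6 higher and 2 lower (47.1% called, against 31.9% of all genes). The zinc and manganese importer Slc39a8 was 1.45-fold, the iron exporter Slc40a1 1.33-fold and the metallothionein Mt1 1.25-fold higher in A/J, and transferrin, Trf, was 1.33-fold lower. With median scaling the calls of Gsto1, Cyp3a13, Slc40a1 and Trf were lost, and without the block that of Slc39a8. In the region of chromosome 6 that holds Pas1, the main lung tumour locus of A/J, 5 genes were tested and 2 called. That share was 40%, against 31.9% of all genes. Med21 was 1.24-fold higher and Sspn 1.23-fold lower in A/J, both calls lost with median scaling.

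Genes of brown fat, the heat-producing fat that lies beside the organs of the mouse chest, were higher in A/J. The list was written after the level of Ucp1 had been seen. A count over it is therefore a description and cannot be weighed against the share of all genes. Ucp1, the uncoupling protein that makes heat in brown fat, read 13.93, 12.78, 12.67 and 14.67 in A/J and 7.92, 7.50, 7.74 and 7.57 in B6, where no array detected it (at least 52.7-fold, 5.83 ± 1.04, adjusted p = 0.000219). Cidea, a lipid droplet protein, read 10.15, 9.41, 9.64 and 11.01 against 8.32, 8, 8.05 and 8.21 (3.75-fold). Both genes were highest in A/J replicate 4. Of 8 such genes tested, 7 were higher in A/J, Ucp1 itself among them (share of all genes 17.4%). They included Thrsp, a regulator of fat synthesis (3.03-fold), the glycerol phosphate dehydrogenase Gpd1 (2.80-fold), and the oxidative genes Cox7a1 (1.97-fold), Cox8b (1.84-fold) and Cpt1b (1.39-fold). The strains overlapped at Cox8b and Cpt1b. On replicate 2 the B6 array was higher at both (Cox8b 12.02 against 12.01, Cpt1b 9.70 against 9.45). Ppargc1a, the coactivator of mitochondrial genes, did not pass the test (−0.11 ± 0.08). Of the general fat markers, Adipoq differed by 0.31 and Cidec by 0.28, neither past the test, and Car3 was 1.90-fold higher in A/J at its brighter probe, a call lost without the block, and did not differ past the test at another probe (−0.04 ± 0.25, adjusted p = 0.93).

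The same genes were followed in the other mice. Ucp1 was detected on all 24 A/J arrays of the series, at 10.73 or above. In B6 it was detected on no sham array, 1 GMA-MS array and 2 GMA-SS arrays at 4 weeks, with a highest value of 12.93, and on all 4 sham arrays at 16 weeks. At 16 weeks the strain difference of Ucp1 between sham lungs was 2.53 ± 0.68 (adjusted p = 0.00748). Its change between the times was −3.13 ± 1.3 and did not pass the test (adjusted p = 0.414). Gpd1 (0.53) and Cox7a1 (0.46) also differed between sham lungs at 16 weeks. Cidea (0.60, adjusted p = 0.111, limma), Thrsp (0.77, 0.109), Cox8b (0.12, 0.687) and Cpt1b (−0.11, 0.482) did not pass there. In GMA-MS lungs at 4 weeks Cidea (1.08, adjusted p = 0.0552), Cox8b (0.37) and Cpt1b (0.32) did not pass either. All of these genes passed in GMA-SS lungs.

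**Figure D4:**
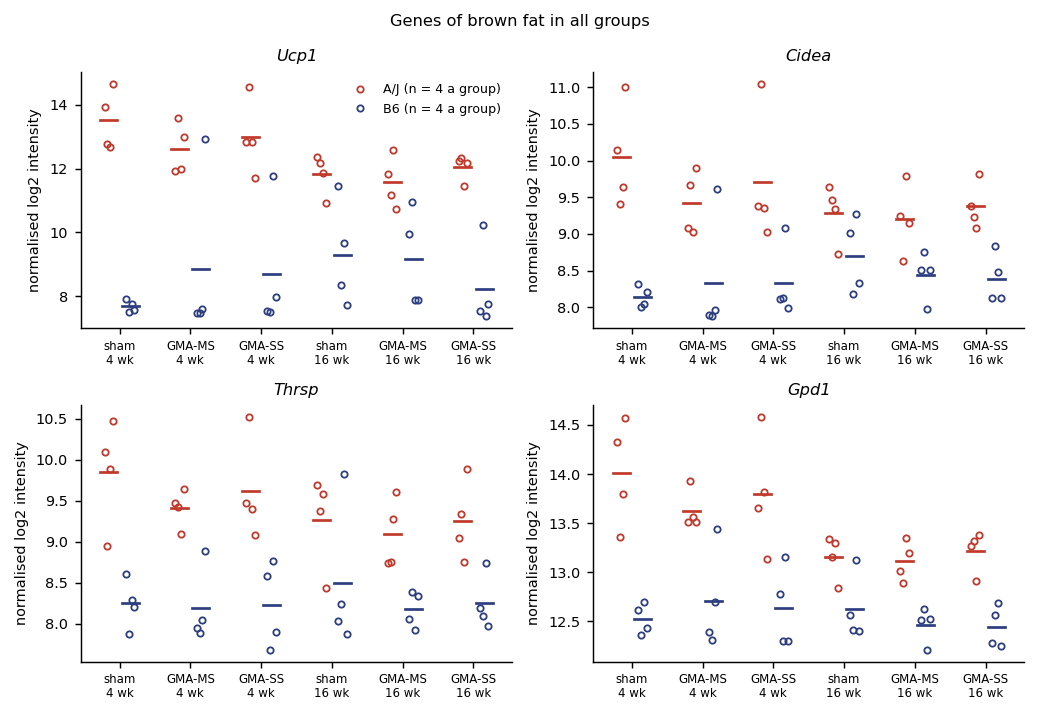
Normalised log2 intensity (vertical axes) of Ucp1, Cidea, Thrsp and Gpd1 on each A/J (red) and B6 (blue) array in the 6 exposure and time groups, 4 arrays a group, with bars for means and each time point normalised by itself. All A/J arrays lie at 10.73 or above for Ucp1, and B6 arrays spread from 7.36 to 12.93.

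Tissues that can be carried along with the lung varied between single arrays of both strains. The median level of 9 genes of squamous epithelium spanned 7.48 to 11.67 across the A/J arrays and 7.52 to 10.72 across the B6 arrays, and that of 5 genes of skeletal muscle 9.22 to 13.24 and 8.10 to 12.66, with no member called. Krt13, a keratin of such epithelium, read 14.61, 14.34, 13.42 and 7.46 in A/J and 13.49, 14.47, 7.45 and 13.81 in B6. A/J replicate 4 and B6 replicate 3 were the arrays without its signal. Tff2, a mucosal trefoil peptide, read 10.76, 9.45, 10.19 and 10.67 in A/J and 12.40, 11.05, 13.04 and 12.11 in B6 (3.69-fold lower in A/J). Of the other gastric and intestinal markers, Lgals4 was also lower in A/J, a call lost without the block and with median scaling. A probe of Lgals4 near background was not called (0.02). The markers Gkn1, Gkn2, Tff1, Atp4a and Atp4b were not among the tested genes. Of the cardiac genes, Actc1 was 1.94-fold lower and Myl7 1.5-fold higher in A/J (the latter lost with median scaling), while Myh6 (0.10) and Tnnt2 (0.07) did not pass the test. The part of such tissue in any strain difference was not tested.

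Immediate early genes are transcribed within minutes of a stimulus. Of 17 tested, 6 were lower in A/J, 1, the phosphatase Dusp1, was higher and 10 did not pass the test. The share called was 41.2%, against 31.9% of all genes. Egr1, a zinc finger factor, read 11.32, 10.92, 11.71 and 11.18 in A/J and 13.34, 12.37, 12.94 and 12.65 in B6 (2.91-fold lower in A/J, −1.54 ± 0.16, adjusted p = 2.77e-07). Ccn1, a secreted matricellular protein, read 9.54, 9.43, 9.80 and 9.33 against 10.85, 10.73, 10.42 and 10.32 (2.08-fold), and Fos, a subunit of AP-1, 10.08, 10.58, 10.36 and 10.77 against 11.30, 11.39, 12.03 and 11.03 (1.99-fold). No A/J array reached the lowest B6 array at these 3 genes. Fosb was 1.58-fold and Nr4a2 1.40-fold lower. Jun (−0.29), Junb (−0.04) and Klf4 (0.12) did not pass the test.

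The circadian clock turns on a loop in which Arntl drives its targets and the nuclear receptors Nr1d1 and Nr1d2 repress Arntl through ROR elements at its start. Of 10 clock genes 3 were called (30%, against 31.9% of all genes). Nr1d1 read 9.54, 10.60, 9.58 and 10.00 in A/J and 8.44, 8.61, 8.29 and 9.40 in B6 (2.37-fold higher in A/J, 1.24 ± 0.28, adjusted p = 0.00221), with a further probe at 0.77 and another at −0.06 that was not called. Arntl read 10.37, 10.06, 10.32 and 10.30 in A/J and 10.61, 10.64, 10.86 and 10.87 in B6 (1.40-fold lower, −0.48 ± 0.09). Nr1d2 was 1.78-fold lower in A/J at its brighter probe, while a probe near background gave 0.16 and was not called. Per2 (−0.03) and Clock (−0.03) did not pass the test, nor did Per1 (0.35) and Dbp (0.49). The calls of Arntl and Nr1d2 were lost with median scaling. The hour at which lungs were taken is not given in the sources used here. The start of Arntl holds 2 matches to the ROR element, searched on both strands, which are shown with 9 bases on either side and the element in capitals.
Arntl, match 1 (GRCm38.p6, chr7:113207492-113207520, plus strand): attggtcggAAAGTAGGTTAgtggtgcga
Arntl, match 2 (GRCm38.p6, chr7:113207528-113207556, plus strand): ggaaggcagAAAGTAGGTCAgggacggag
Such letters were found in 20 of the 32851 start regions of 300 bases (0.0609%). The pattern searched was fixed at every letter except that at which the 2 Arntl matches differ. This share therefore tells nothing about Arntl, and a match is a description and not a site. Repression of Arntl through these letters was not tested.

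The strain difference of sham lungs was compared with the same difference in mice that did not enter it. In GMA-MS lungs at 4 weeks 4146 probes differed between the strains (35.7%), in GMA-SS lungs 3632 (31.2%), and in sham lungs at 16 weeks 3794 of 11881 (31.9%). Of the 3579 probes called in sham lungs at 4 weeks, 70.7% were also called the same way in GMA-MS lungs, 71.6% in GMA-SS lungs and 69% of those measured in sham lungs at 16 weeks, while 6, 1 and 3 were called the opposite way. Of the 1436 with at least 1.3 fold, 91.9%, 92.4% and 87.5% were called the same way and 0 the opposite way. The fits at 4 weeks share their estimate of the spread and the beadchips, whereas the arrays of 16 weeks lie on beadchips of their own. At H2-D1, H2-Aa, H2-Ea, Emb, Hc, Glo1 and Krt79 the 24 A/J arrays of the series did not overlap with the 24 B6 arrays.

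Changes of the strain difference with exposure or time passed the test at few probes. With GMA-MS the difference changed at 12 probes (0.103%), with GMA-SS at 0 by limma, and between 4 and 16 weeks at 19 of 12223 (0.155%). At an unadjusted p under 0.05 the numbers were 1317, 649 and 1140. These changes use the same sham arrays. Among the genes described above, Egr1, Ccn1, Fos and Mmp12 changed with GMA-MS. The strain difference of Egr1 was −1.54 in sham lungs, 0.09 in GMA-MS lungs and −0.25 in GMA-SS lungs, a change of 1.64 with GMA-MS (adjusted p = 0.00304). B6 sham lungs read 12.37 to 13.34 at 4 weeks, above all the other groups of that time, in which Egr1 lay between 10.85 and 11.71. Ccn1 changed by 1.42 (adjusted p = 0.0234), with B6 sham lungs at 10.32 to 10.85 and B6 GMA-MS lungs at 8.97 to 9.56, while its other probe changed by 0.74 and was not called (adjusted p = 0.14). Fos changed by 1.45 (adjusted p = 0.0397), with 11.03 to 12.03 and 9.55 to 10.47. The A/J sham and A/J GMA-MS ranges overlapped at all 3 genes. Mmp12 was higher in A/J, with a strain difference of 0.55 in sham lungs and 1.84 in GMA-MS lungs (change 1.29, adjusted p = 0.0231). Mmp12 lay between 10.02 and 11 in A/J GMA-MS lungs and between 8.40 and 8.62 in those of B6. The 12 calls became 3 without the block, 4 with the contrast's own groups alone or with no filter, and 0 with median scaling, and between 3 and 17 when single arrays were left out.

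**Figure D5:**
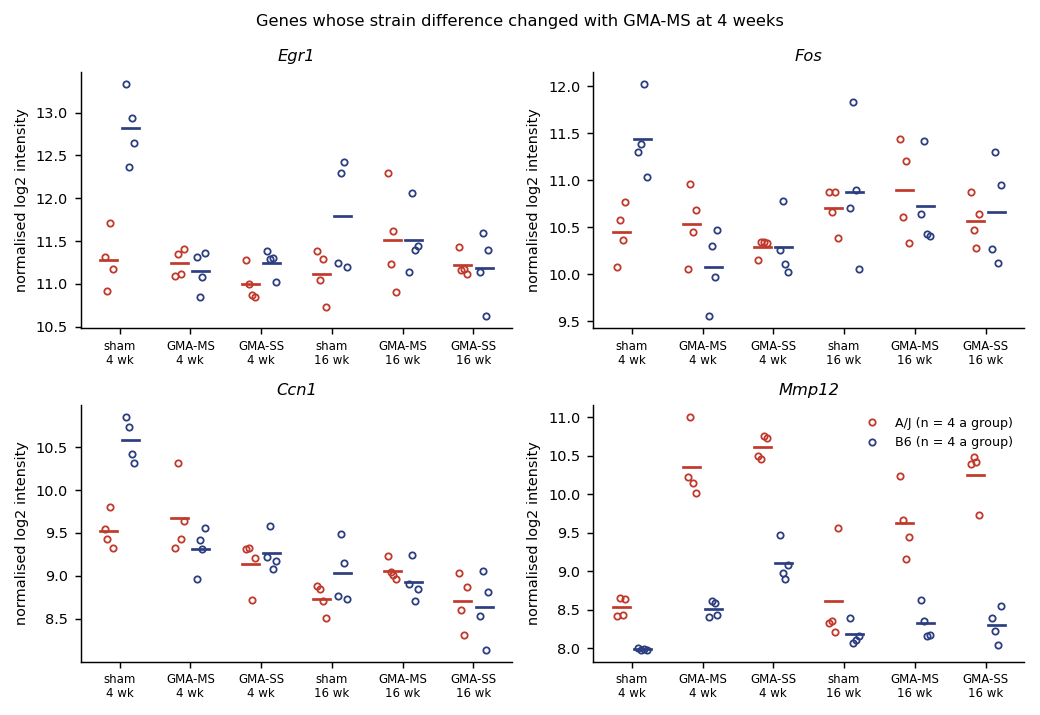
Normalised log2 intensity (vertical axes) of Egr1, Fos, Ccn1 and Mmp12 on each A/J (red) and B6 (blue) array in the 6 exposure and time groups, 4 arrays a group, with bars for means and each time point normalised by itself. B6 sham arrays at 4 weeks stand above the other groups of that time for Egr1 (12.37 to 13.34), and Mmp12 is highest in A/J mice given fume.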

How the data were processed

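Total lung RNA of 48 mice was labelled by the authors and hybridised to Illumina MouseRef-8 beadchips, 6 arrays on each of 8 beadchips. The authors deposited the intensity of each probe as exported by BeadStudio, without normalization, with a detection p-value and the number of beads per probe. They also deposited log2 values made with lumi (background forced positive, variance-stabilising transformation, robust spline normalization). The intensity and detection p-value were used here, with those log2 values as an alternative. Probes were named through the platform annotation, with 20984 of 24613 pairing with 1 gene, and start sequences are RefSeq's for GRCm38.p6.

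Intensities of each time point were background-corrected from the detection p, offset by 16, quantile-normalised (neqc) and fitted with limma 3.58.1 in R 4.3.3 over 6 groups and 24 arrays, with beadchip as a block and 15 residual degrees of freedom. P-values were Benjamini-Hochberg adjusted over all probes tested, with calls under 0.05. Sham arrays of the 2 strains with the same replicate number share a beadchip by their labels, and their deviations correlated at 0.521, 0.677, 0.277 and 0.173. Lungs came from separate animals as far as the labels tell. The number of arrays limits the precision. "At least" folds set the mean of the detected strain against, for each array of the other, the higher of the probe's own signal and the lowest signal of a detected probe.

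Named genes are the 15 largest called differences in each direction whose sign was the same in all 4 pairs, all measured class II genes and known strain alleles, and from each other list at most 5 called members with the largest difference. Other list members are given as values, and a gene with several probes is represented by its brightest unless stated. The genes and all 37 lists were chosen with earlier results of these data known, and the brown fat list, Ctsc, Cldn10 and Krt13 after their values were seen. Alternatives were no block, the sham groups alone, no background correction, median scaling, the deposited log2 values, other filters, 1 probe per gene, a trended robust variance, and each sham array left out. The procedure was tested on simulated data.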

Additional observations from a re-analysis of the deposited data

Results flagged for a closer look

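In 312 groups of 4 arrays 19 held an array far from the other 3, and chance flags about 1 in 20. Gbp2b read 9.019 in B6 replicate 3, against 7.53 to 7.547 in the other B6 arrays, and Ccl8 11.12 in the same array against 8.178 to 8.34. Klrb1b also stood out there, at 8.261. In B6 replicate 1 Klrb1c was high at 8.781 and Col1a2 low at 9.914. In B6 replicate 2 Clic5 (10.47) and Slc40a1 (10.71) were low, and in B6 replicate 4 Prdx1 was high at 15.13. In A/J replicate 1 H2-DMb1 was high at 12.15, while Abca3 (10.03) and Slc4a1 (10.12) were low. In A/J replicate 2 Hddc3 (10.09), Pdpn (14.03) and Klrb1c (7.749) were low. In A/J replicate 3 H2-T23 was low at 7.698 and Ppbp high at 9.848. In A/J replicate 4 Tekt4 (10.44), Serping1 (13.72) and Prdx1 (15.46) were high.

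The strain difference changed with GMA-MS, by the limma interaction over all probes, at Egr1 (1.64, adjusted p = 0.00304), Fos (1.45, adjusted p = 0.0397), Ccn1 (1.42, adjusted p = 0.0234) and Mmp12 (1.29, adjusted p = 0.0231).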

How the results depend on the processing

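No called direction of the 156 named genes reversed in any alternative. Sizes did depend on the processing, as 29 of the 151 called differences were over 1.5 times smaller in the deposited log2 values and 20 moved by over 1.5 times with median scaling, 10 of them to a smaller size. Without the replicate block, 2117 probes differed between sham lungs at 4 weeks, 2449 in GMA-MS and 2189 in GMA-SS lungs, 11 genes had probes called in both directions, and the strain difference changed at 3 probes with GMA-MS and at 2 between 4 and 16 weeks. Scaled to the median of all probes, 830 probes differed in sham lungs at 4 weeks, 827 of them by 1.3 fold, 1086 in GMA-SS lungs and 119 in sham lungs at 16 weeks, with 0 genes called in both directions and 0 changes with GMA-MS or time. The deposited log2 values gave 927 probes at 1.3 fold and 168 changes between 4 and 16 weeks. With no filter 4 changes with GMA-MS were called, and with only the groups of the contrast 4, and 1 between the times. Leaving out single arrays gave 3041 to 3356 probes in sham lungs at 4 weeks, 1371 to 1492 at 1.3 fold, 3536 to 4031 in GMA-MS, 2978 to 3369 in GMA-SS, 3296 to 3735 in sham lungs at 16 weeks, 19 to 25 genes called in both directions, 3 to 17 changes with GMA-MS, 0 to 2 with GMA-SS and 4 to 30 with time. Of 151 called named genes, 75 lost the call with median scaling and 31 without the block. The causes were not tested. Probes at background in a strain give only a lower bound.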
